A study of Homo sapiens with 8 samples.

Results

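The genes described here are the 39 genes of the human aminoacyl-tRNA synthetase family and of its scaffold that were searched for by symbol, in current or older form, in the authors' deposited gene tables, which hold 18937 genes. All 39 were found under their current symbol, and all 39 were among the 16449 genes tested. They comprise 19 genes of cytosolic enzymes, 16 genes of mitochondrial enzymes, 3 scaffold genes (AIMP1, AIMP2 and EEF1E1) and TARS3, a further threonyl enzyme that follows neither naming rule. RNA was measured in cells of HT29, an established line from a human colorectal adenocarcinoma, given ICG-001 at 10 µM, CWP232228 at 1.5 µM, YB-0158 at 0.3 µM or the vehicle DMSO at 0.1%, with 2 libraries in each of the 4 groups. The series title calls the compounds reverse-turn peptidomimetics. Exposure was labelled as 48 h for 6 libraries and as 49 h for replicate 2 of ICG-001 and replicate 2 of CWP232228. Whether replicates are separate cultures is not stated in the labels, and the p-values rest on a spread between libraries that may be technical. A single cell line was used, and bulk RNA does not tell fewer cells of a kind apart from less RNA per cell.

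An aminoacyl-tRNA synthetase joins an amino acid to the tRNAs that carry its anticodon, which sets the genetic code at each step of translation. Human cells keep one set of enzymes for the cytosol and a largely separate set for the mitochondrial ribosome, both encoded in the nucleus, while GARS1 and KARS1 make both forms from a single gene. Several cytosolic enzymes sit together with AIMP1, AIMP2 and EEF1E1 in a multisynthetase complex. The enzymes fall into a pair of unrelated folds called class I and class II, and the bifunctional EPRS1 has a domain of each. Genes of cytosolic synthetases are textbook targets of ATF4, the transcription factor of the amino acid response.

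Each library held 29071547 to 58489118 estimated reads, and the 39 genes together took 0.344% to 0.566% of them. The pair of DMSO libraries was the least alike: replicates differed over 11335 genes with an SD, in log2 units, of 0.168 for ICG-001, 0.164 for CWP232228, 0.164 for YB-0158 and 0.332 for DMSO. Of 10 colon epithelium markers, 9 or 10 averaged at least 1 CPM (read count scaled to library size) in each group, CDX1 averaging under 1 CPM with ICG-001 and YB-0158. The list summed to 10900 to 11400 CPM with ICG-001, 10700 to 11200 CPM with CWP232228 and 12400 to 12600 CPM with YB-0158, against 14000 to 15500 CPM in DMSO. The fibroblast and endothelium lists summed to between 1.38 and 6.11 CPM in a library, and the leukocyte list to 4.43 to 4.77 CPM with ICG-001, 8.16 to 8.53 CPM with CWP232228 and 5.35 to 7.35 CPM with YB-0158, against 11.3 to 11.4 CPM in DMSO. The part of these differences in the results was not tested. Of the leukocyte list, PTPRC, CD3E and CSF1R were under 1 CPM in every group, while CD68 and ITGAM averaged at least 1 CPM in each. All comparisons against the vehicle share the same DMSO libraries. A gene was called at a Benjamini-Hochberg adjusted p under 0.05 in edgeR's quasi-likelihood test, which was run on reads summed per gene. For AARS1, GARS1, LARS1, YARS1, EARS2 and AIMP1 these sums, which leave out transcripts with no match to a gene, held less than 50% of the authors' mean count. Single values of these 6 genes are therefore the authors' deposited FPKM (fragments per kilobase of transcript, scaled to library size), tested in limma as log2(FPKM + 0.1), and counts are given by both tests.

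Genes of cytosolic enzymes were mostly higher after each compound, while at most 1 of the 16 genes of mitochondrial enzymes was called higher with a compound. With ICG-001, 13 of the 39 genes were called higher and 12 lower, where 24.8% of all genes tested were called higher and 24% lower (48.8% in either direction). With CWP232228, 15 were called higher and 7 lower, against 21.6% and 21.2% of all genes (42.8% in either direction). With YB-0158, 14 were called higher and 10 lower, against 21.7% and 22.1% of all genes (43.8% in either direction). Taken over the 39 genes, the calls thus ran at 33.3%, 38.5% and 35.9% higher and at 30.8%, 17.9% and 25.6% lower with ICG-001, CWP232228 and YB-0158. In limma on the FPKM, 15, 14 and 14 genes were called higher and 5, 3 and 5 lower in the same order of compounds, where 16.6%, 10.3% and 15.1% of all genes were called higher and 18.5%, 12.8% and 16.5% lower (35.2%, 23.1% and 31.7% in either direction).

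**Figure D1:**
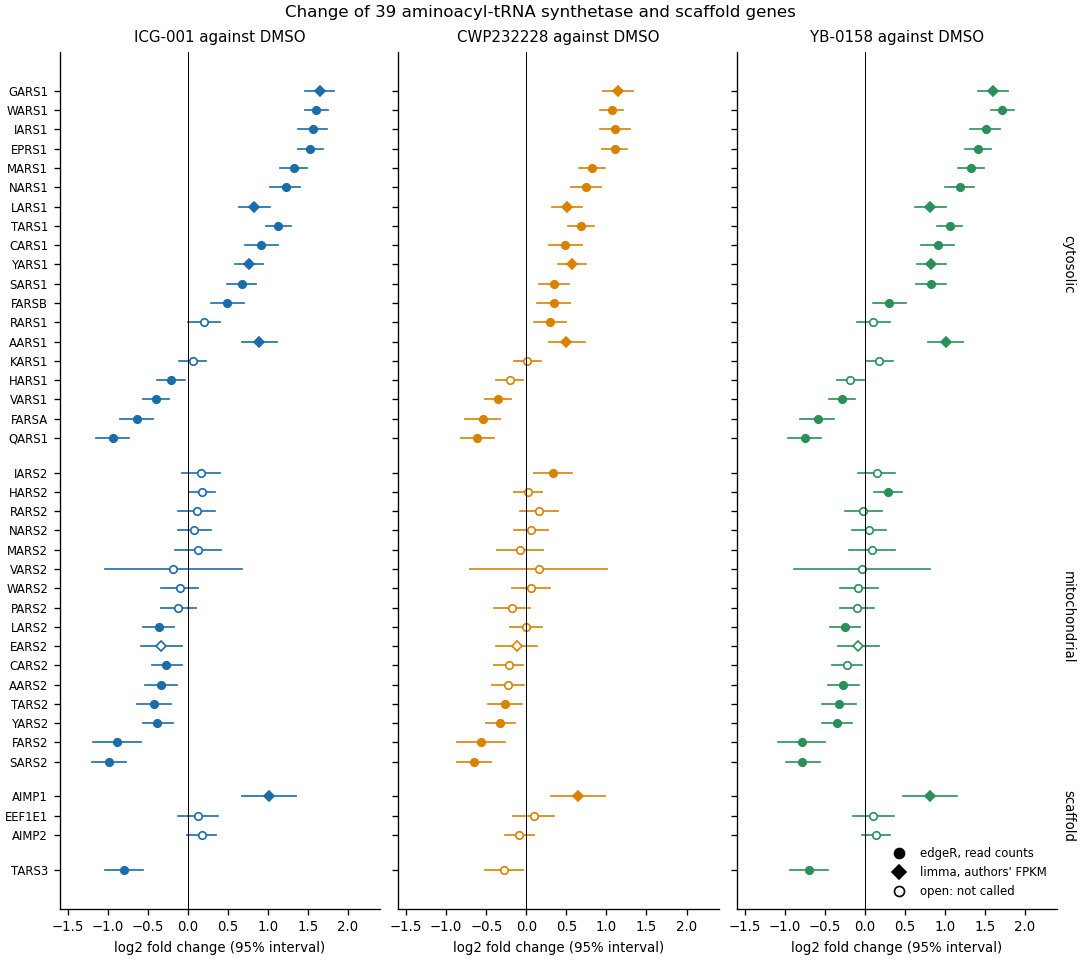
Log2 fold change (points, x axis) with its 95% interval (lines) of the 39 genes (rows, grouped by class) for ICG-001, CWP232228 and YB-0158 against DMSO, 2 libraries each; circles are edgeR on read counts, diamonds limma on the authors' FPKM for the 6 genes with incomplete sums, and open symbols did not pass an adjusted p of 0.05. The cytosolic rows run from 1.71 for WARS1 with YB-0158 to -0.94 for QARS1 with ICG-001, while the highest mitochondrial point is 0.33 for IARS2 with CWP232228.

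Of the 19 cytosolic genes, 12 were called higher and 4 lower with ICG-001, 13 higher and 3 lower with CWP232228, and 13 higher and 3 lower with YB-0158. Their median log2 fold change was 0.68, 0.48 and 0.85 in that order, beside a median over all genes of 0.03, 0.04 and 0.02. By FPKM, 13, 12 and 12 were called higher and 2, 1 and 2 lower. By read counts, 12 genes were called higher with all 3 compounds. They encode the cysteinyl (CARS1), bifunctional glutamyl and prolyl (EPRS1), phenylalanyl beta subunit (FARSB), glycyl (GARS1), isoleucyl (IARS1) and leucyl (LARS1) enzymes. The rest encode the methionyl (MARS1), asparaginyl (NARS1), seryl (SARS1), threonyl (TARS1), tryptophanyl (WARS1) and tyrosyl (YARS1) enzymes. Summed over the 19 genes, the authors' FPKM came to 3680 and 3671 with ICG-001, 2882 and 2733 with CWP232228, and 3694 and 3708 with YB-0158, against 1863 and 1950 in DMSO. Each library of a compound thus lay above both DMSO libraries. Within these sums MARS1 alone averaged 850 FPKM with ICG-001, 535 FPKM with CWP232228 and 856 FPKM with YB-0158, against 269 FPKM in DMSO. A single short transcript held 46.3% to 74.5% of the length-scaled level of MARS1. The 16 mitochondrial genes summed to 310.5 and 335.7 FPKM with ICG-001, 345.0 and 339.6 FPKM with CWP232228, and 319.7 and 333.0 FPKM with YB-0158, against 349.9 and 371.7 FPKM in DMSO.

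WARS1 (ENSG00000140105, chr14:100333788-100376805, GRCh38, minus strand), the tryptophanyl enzyme, is also known as an interferon-induced gene. It was at 298 and 303 CPM with ICG-001, 211 and 203 CPM with CWP232228, and 324 and 323 CPM with YB-0158, against 99.97 and 97.5 CPM in DMSO. The groups did not overlap, and the log2 fold changes were 1.60 ± 0.06 (SE; adjusted p = 2.9e-06), 1.07 ± 0.06 (8.3e-05) and 1.71 ± 0.06 (2.1e-06). IARS1 (ENSG00000196305, chr9:92210207-92293756, minus strand) was the most abundant of the leading genes in CPM, with 680.0 and 706 CPM with ICG-001, 522 and 494 CPM with CWP232228, and 652 and 688 CPM with YB-0158, against 249.8 and 222 CPM in DMSO. It rose by 1.56 ± 0.08, 1.11 ± 0.08 and 1.51 ± 0.08 on the log2 scale (adjusted p = 1e-05, 0.00019 and 1.3e-05).

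EPRS1 (ENSG00000136628, chr1:219968601-220046658, minus strand) stood at 561 and 599 CPM with ICG-001, 438.5 and 426 CPM with CWP232228, and 529 and 541 CPM with YB-0158, against 206 and 196 CPM in DMSO. Every treated library held more than both vehicle libraries, and the log2 fold changes were 1.53 ± 0.07, 1.11 ± 0.07 and 1.41 ± 0.07 (adjusted p = 5.2e-06, 9.1e-05 and 7.5e-06). GARS1 (ENSG00000106105, chr7:30594681-30634033, plus strand) makes the glycyl enzyme of both compartments. Its deposited FPKM was 313 and 320.5 with ICG-001, 231 and 216.5 with CWP232228, and 311 and 303 with YB-0158, against 96.3 and 106 in DMSO. In limma on the FPKM these were log2 fold changes of 1.65 ± 0.08, 1.15 ± 0.08 and 1.60 ± 0.08 (adjusted p = 0.00014, 0.0015 and 0.00019), and the authors' deposited table gives 1.64, 1.13 and 1.59.

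MARS1, NARS1, TARS1 and CARS1 followed with log2 fold changes of 1.32, 1.22, 1.13 and 0.91 with ICG-001, 0.82, 0.74, 0.68 and 0.48 with CWP232228, and 1.33, 1.19, 1.06 and 0.91 with YB-0158. MARS1 is given in CPM because a single transcript of 216 bases, MARS-234, held 0.675% to 1.63% of its reads but 46.3% to 74.5% of its length-scaled level. MARS1 also shares 355 exonic bases with DDIT3 on the opposite strand, and the kit does not mark strand, but the reads of DDIT3 came to 0.0853 times those of MARS1. SARS1 had 302 and 314 CPM with ICG-001, 251 and 239.5 CPM with CWP232228, and 346 and 342 CPM with YB-0158, against 180.0 and 207 CPM in DMSO. Its libraries did not overlap with DMSO, at log2 fold changes of 0.67, 0.34 and 0.83. Without CWP232228 replicate 1 the SARS1 value with CWP232228 was 0.31 and was not called (adjusted p = 0.064). LARS1 rose by 0.83 and 0.82 on the log2 scale of FPKM with ICG-001 and YB-0158 and by 0.51 with CWP232228, and YARS1 by 0.76, 0.83 and 0.57 in the same order.

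**Figure D2:**
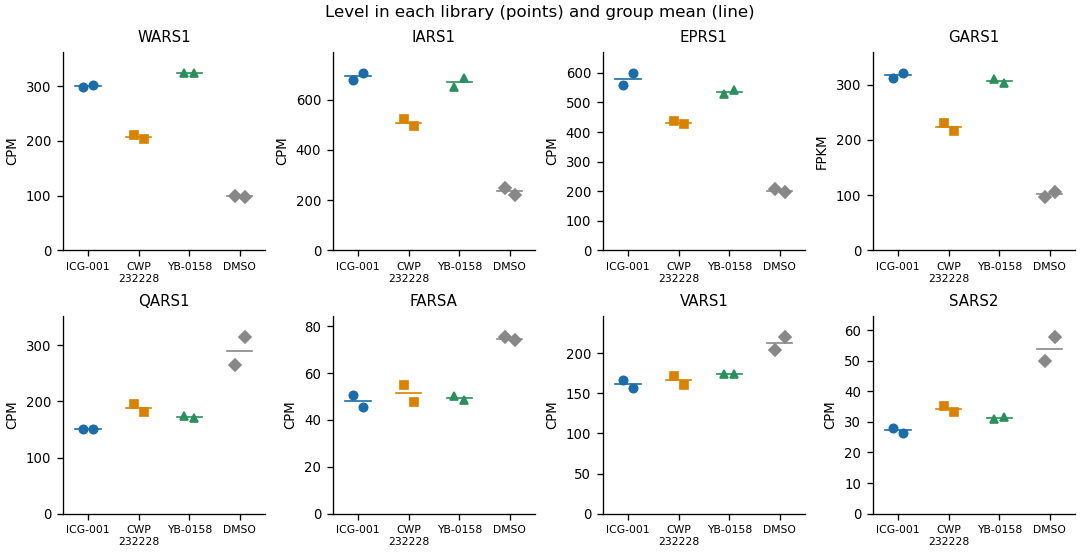
Level per library (points) and group mean (line) of the 4 cytosolic genes with the largest rise, the 3 with the fall, and the mitochondrial SARS2; the y axis is CPM, a read count scaled to library size, or the authors' FPKM for GARS1, and starts at 0. WARS1, IARS1, EPRS1 and GARS1 lie above both DMSO libraries in each of the 6 treated libraries, and QARS1, FARSA, VARS1 and SARS2 lie below both.

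FARSB, which pairs with FARSA in the phenylalanyl enzyme, was at the low end of this group. It stood at 71.6 and 81.9 CPM with ICG-001, 69.8 and 68.0 CPM with CWP232228, and 64.0 and 70.6 CPM with YB-0158, against 53.8 and 55.1 CPM in DMSO, with log2 fold changes of 0.49, 0.34 and 0.30. With a correction for GC content and length its value was 0.04 with ICG-001, -0.18 with CWP232228 and -0.07 with YB-0158, so that the call ended with each and the direction turned with the last 2. By FPKM it was called only with ICG-001 of the 3 (log2 fold changes of 0.45, 0.26 and 0.29, adjusted p = 0.019, 0.11 and 0.079). Leaving out CWP232228 replicate 1 or 2 ended the call with CWP232228 (0.32 and 0.36), and leaving out YB-0158 replicate 2 that with YB-0158 (0.23).

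Promoter sequence was available for 33 of the 39 genes from RefSeq (GRCh38.p14), as windows of 300 bases from 250 before to 50 after a transcription start, with more than 1 window for some genes; LARS1, VARS1, YARS1, AARS2, VARS2 and TARS3 had none. The windows were searched on both strands for TGATGNAA, the core that binds dimers of ATF4 with C/EBP proteins. At least 1 window held it in 7 of the 16 cytosolic genes with a window (43.8%: AARS1, CARS1, GARS1, IARS1, MARS1, NARS1 and TARS1), in 1 of 14 mitochondrial genes (7.14%, YARS2) and in 0 of 3 scaffold genes, beside 1217 of 27305 genes of the whole table (4.46%). Among the cytosolic genes called higher with all 3 compounds by read counts it was found in 6 of 10, and WARS1 and EPRS1 were without it. AARS1, called higher with all 3 by FPKM, is not among those 10. The match was TTGCATCA, its reverse complement TGATGCAA in NARS1, and TTTCATCA in GARS1, and in GARS1, CARS1, IARS1, MARS1, NARS1 and TARS1 it began within the stretch from 33 bases before to 15 bases after the start. In AARS1 it began 187 bases before the start, and in YARS2, as TGATGGAA, 197 bases before it. A match is a run of letters and not a measured binding site. The windows below are those of the 3 genes with the largest rise and a match (GARS1, chr7:30594628-30594927, plus strand; IARS1, chr9:92293648-92293947, minus strand; MARS1, chr12:57487818-57488117, plus strand) and of the gene with the largest fall in the mean read-count value, SARS2 (chr19:38930714-38931013, minus strand), each on the gene's strand, 5′ to 3′. Capitals mark the match, and SARS2 has none.
GARS1: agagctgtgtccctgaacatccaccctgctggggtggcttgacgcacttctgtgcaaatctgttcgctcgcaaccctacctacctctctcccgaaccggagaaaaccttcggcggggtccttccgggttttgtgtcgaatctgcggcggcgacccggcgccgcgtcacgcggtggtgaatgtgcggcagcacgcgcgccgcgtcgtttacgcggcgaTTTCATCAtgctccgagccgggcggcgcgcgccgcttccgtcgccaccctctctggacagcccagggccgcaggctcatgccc
IARS1: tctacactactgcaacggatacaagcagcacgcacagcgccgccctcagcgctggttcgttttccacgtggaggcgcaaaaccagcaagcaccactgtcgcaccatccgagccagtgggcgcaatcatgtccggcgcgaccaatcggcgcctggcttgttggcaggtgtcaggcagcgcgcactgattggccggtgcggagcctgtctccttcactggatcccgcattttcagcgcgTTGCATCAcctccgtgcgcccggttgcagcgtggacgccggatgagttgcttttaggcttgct
MARS1: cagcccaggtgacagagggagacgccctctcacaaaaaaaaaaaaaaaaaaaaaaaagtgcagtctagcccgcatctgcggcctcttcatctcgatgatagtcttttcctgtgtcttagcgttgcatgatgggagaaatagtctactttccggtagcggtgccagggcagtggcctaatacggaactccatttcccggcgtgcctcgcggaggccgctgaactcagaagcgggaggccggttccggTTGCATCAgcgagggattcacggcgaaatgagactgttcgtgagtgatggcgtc
SARS2: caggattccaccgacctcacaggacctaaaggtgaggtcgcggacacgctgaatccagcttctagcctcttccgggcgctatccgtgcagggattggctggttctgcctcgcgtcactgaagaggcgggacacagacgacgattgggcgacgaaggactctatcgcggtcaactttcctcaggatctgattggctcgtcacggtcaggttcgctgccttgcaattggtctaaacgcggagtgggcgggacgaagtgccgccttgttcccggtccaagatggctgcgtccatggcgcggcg

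3 cytosolic genes were called lower with all 3 compounds: QARS1 (glutaminyl), FARSA (phenylalanyl alpha subunit) and VARS1 (valyl). QARS1 (ENSG00000172053, chr3:49095932-49105135, minus strand) had 150.5 and 151 CPM with ICG-001, 196 and 182 CPM with CWP232228, and 174 and 170.4 CPM with YB-0158, against 265 and 315 CPM in DMSO. It fell by 0.94, 0.62 and 0.75 on the log2 scale (adjusted p = 0.00012, 0.0019 and 0.00038), the largest fall of a cytosolic gene by read counts. By FPKM its log2 fold change with CWP232228 was -0.32 and was not called (adjusted p = 0.18). FARSA stood at 50.5 and 45.4 CPM with ICG-001, 55.0 and 47.6 CPM with CWP232228, and 50.3 and 48.6 CPM with YB-0158, against 75.5 and 74.0 CPM in DMSO. All treated libraries lay below both DMSO libraries, at log2 fold changes of -0.64, -0.54 and -0.59, opposite in sign to FARSB. After the correction for GC content and length the FARSA values were -0.30, -0.16 and -0.28, and that with CWP232228 was not called (adjusted p = 0.12). VARS1 had 166 and 157 CPM with ICG-001, 172 and 160.2 CPM with CWP232228, and 174 and 175 CPM with YB-0158, against 204 and 220.4 CPM in DMSO. Its log2 fold changes of -0.40, -0.35 and -0.28 did not hold by FPKM (-0.16, -0.16 and -0.21, adjusted p = 0.41, 0.43 and 0.29), and the authors' deposited table gives -0.16, -0.14 and -0.20 for the same gene. The VARS1 call was also lost with CWP232228 without its replicate 2 (-0.30) and with YB-0158 without either of its libraries (-0.29 each).

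The other 4 cytosolic genes showed no common direction, and AARS1 is among them only by its incomplete read sums. AARS1, the alanyl enzyme, had a deposited FPKM of 133 and 130.0 with ICG-001, 105 and 96.6 with CWP232228, and 145 and 141 with YB-0158, against 65.8 and 76.5 in DMSO. These were log2 fold changes of 0.89, 0.50 and 1.01 in limma (adjusted p = 0.0016, 0.018 and 0.0012), while the incomplete read sums of AARS1 were called with YB-0158 only. KARS1, the lysyl enzyme of both compartments, was at 231 CPM with ICG-001, 224 CPM with CWP232228, 252 CPM with YB-0158 and 222 CPM in DMSO on average, and no comparison against DMSO was called (95% limits from -0.16 to 0.35 over the 3). HARS1, the histidyl enzyme, changed by -0.21, -0.21 and -0.18 and was called with ICG-001 only (adjusted p = 0.048, against 0.054 and 0.079). RARS1, the arginyl enzyme, had log2 fold changes of 0.20, 0.29 and 0.10 by read counts but -0.24, -0.01 and -0.28 by FPKM, so its direction depended on the measure. Its call with CWP232228 was lost without either CWP232228 library (0.27 and 0.32) or without DMSO replicate 1 (0.24), and that of HARS1 under 7 of the 8 omissions of a library, at -0.14 to -0.23.

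HARS1 and HARS2 lie head to head on chromosome 5, with promoter windows that share 184 bases. HARS2, the mitochondrial histidyl enzyme, had 62.4 and 63.4 CPM with ICG-001, 56.4 and 56.4 CPM with CWP232228, and 69.2 and 67.2 CPM with YB-0158, against 53.4 and 58.1 CPM in DMSO. It was called higher with YB-0158 only of the 3 (log2 fold change 0.29, adjusted p = 0.013), where HARS1 had -0.18. Without YB-0158 replicate 1 or 2 the HARS2 value was 0.26 and 0.32 and was not called. The pair also shares 437 exonic bases, so reads there cannot be assigned by strand. The HARS1 window is shown (chr5:140691321-140691620, minus strand), of which the bases up to position 140691504 are shared with the HARS2 window, and neither window has a match to the motif.
HARS1: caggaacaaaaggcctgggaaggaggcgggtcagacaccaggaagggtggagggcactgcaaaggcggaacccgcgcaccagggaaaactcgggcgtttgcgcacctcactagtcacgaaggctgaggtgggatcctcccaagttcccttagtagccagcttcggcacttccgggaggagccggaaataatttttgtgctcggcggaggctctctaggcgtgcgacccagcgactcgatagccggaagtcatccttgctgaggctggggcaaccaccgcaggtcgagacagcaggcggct

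By place in the cell, 4 of the 7 enzymes of the multisynthetase complex were called higher and 1 (QARS1) lower with ICG-001 by read counts. With CWP232228 these were 5 and 1, and with YB-0158 4 and 1. Of the 12 cytosolic genes outside it, 8 were called higher and 3 lower with ICG-001, 8 and 2 with CWP232228, and 9 and 2 with YB-0158. By fold, with EPRS1 counted in both, class I had 7, 8 and 7 of 10 genes called higher and 2 lower each. Class II had 6, 6 and 7 of 10 called higher and 2, 1 and 1 lower. Over all genes tested, 24.8%, 21.6% and 21.7% were called higher and 24%, 21.2% and 22.1% lower in the same order of compounds. The counts called lower in these sets were near or under those shares. By FPKM, 4 of the 7 complex enzymes were called higher with each compound and 1, 0 and 1 lower. Outside the complex, 9, 8 and 8 of 12 were called higher and 1 lower each. Class I had 7 of 10 higher each and 1, 0 and 1 lower, class II 7, 6 and 6 higher and 1 lower each. Of all genes, 16.6%, 10.3% and 15.1% were called higher by FPKM and 18.5%, 12.8% and 16.5% lower. By read counts, members of the complex thus moved apart from each other: IARS1, EPRS1, LARS1 and MARS1 rose and QARS1 fell. KARS1 and RARS1 had log2 fold changes of 0.01 to 0.29 by read counts. By FPKM, RARS1 had -0.24, -0.01 and -0.28 and was not called, and QARS1 was not called with CWP232228 (-0.32).

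The scaffold genes differed too. AIMP1, whose product is also secreted as a cytokine precursor, had a deposited FPKM of 88.3 and 94.3 with ICG-001, 79.3 and 63.1 with CWP232228, and 72.2 and 88.5 with YB-0158, against 44.0 and 46.6 in DMSO. It lay above DMSO in every treated library, at log2 fold changes of 1.01 ± 0.14, 0.64 ± 0.14 and 0.82 ± 0.14 (adjusted p = 0.0036, 0.026 and 0.0081). AIMP1 shares 387 exonic bases with TBCK on the opposite strand, whose reads came to 1.08 times the incomplete read sum of AIMP1. AIMP2 had 58.4 and 56.8 CPM with ICG-001, 48.2 and 48.3 CPM with CWP232228, and 55.5 and 57.2 CPM with YB-0158, against 48.4 and 54.0 CPM in DMSO. EEF1E1 had 25.4 and 27.3 CPM with ICG-001, 24.9 and 26.5 CPM with CWP232228, and 25.2 and 26.7 CPM with YB-0158, against 21.7 and 26.6 CPM in DMSO. Neither AIMP2 nor EEF1E1 was called with a compound, at log2 fold changes between -0.09 and 0.17. AIMP2 overlaps EIF2AK1 over 28.9% of its exonic bases, and EIF2AK1 had 6.1 times its reads, so the value of AIMP2 is uncertain.

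Of the 16 mitochondrial genes, 0 were called higher and 7 lower with ICG-001, 1 higher and 4 lower with CWP232228, and 1 higher and 6 lower with YB-0158, at median log2 fold changes of -0.22, -0.08 and -0.16. Shares of 43.8%, 25% and 37.5% called lower compare with 24%, 21.2% and 22.1% of all genes. By FPKM, 2 were called lower with each compound, SARS2 and FARS2, which is no larger a share than over all genes (18.5%, 12.8% and 16.5%). At an unadjusted p under 0.05, 1 of the 16 was higher with ICG-001 in edgeR, and limma on the FPKM called 1 (RARS2).

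SARS2 (ENSG00000104835, chr19:38915266-38930896, minus strand), the mitochondrial seryl enzyme, had the largest fall of the 39 genes in the mean of the read-count values over the 3 compounds. It had 27.9 and 26.5 CPM with ICG-001, 35.2 and 33.1 CPM with CWP232228, and 31.1 and 31.7 CPM with YB-0158, against 49.8 and 57.8 CPM in DMSO. The groups did not overlap, and the log2 fold changes were -0.98 ± 0.09, -0.66 ± 0.10 and -0.78 ± 0.09 (adjusted p = 0.00013, 0.0019 and 0.00042). By FPKM they were -0.66, -0.51 and -0.51, and after the correction for GC content and length -0.57, -0.21 and -0.40, and each was called. The order of the falls depended on the measure: FARS2 stood lower by FPKM with ICG-001 (-0.90) and YB-0158 (-0.73), and TARS3 after the correction with each compound (-1.09, -0.61 and -0.95). SARS2 shares 349 exonic bases with MRPS12 on the opposite strand, whose reads came to 1.69 times its own. Transcripts with that overlap held 86% of the SARS2 reads, so the value of SARS2 is in part uncertain.

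FARS2, the mitochondrial phenylalanyl enzyme, had 8.28 and 9.49 CPM with ICG-001, 11.6 and 10.5 CPM with CWP232228, and 9.24 and 9.73 CPM with YB-0158, against 14.8 and 18.0 CPM in DMSO. It lay below DMSO in all treated libraries, at log2 fold changes of -0.89, -0.57 and -0.79 (adjusted p = 0.00089, 0.01 and 0.0018). Without CWP232228 replicate 2 its value with CWP232228 was -0.49 (adjusted p = 0.085). YARS2 had 30.1 and 30.5 CPM with ICG-001, 31.4 and 31.4 CPM with CWP232228, and 30.4 and 31.3 CPM with YB-0158, against 37.6 and 41.1 CPM in DMSO. TARS2 had 33.5 and 34.0 CPM with ICG-001, 39.5 and 35.5 CPM with CWP232228, and 38.0 and 34.2 CPM with YB-0158, against 43.6 and 46.7 CPM in DMSO. Both lay below DMSO without overlap and were called lower by read counts with every compound (YARS2 -0.38, -0.33 and -0.35; TARS2 -0.42, -0.27 and -0.32), but with none by FPKM (adjusted p of 0.12 to 0.51 and of 0.18 to 0.37). The YARS2 calls with CWP232228 and YB-0158 were lost without either library of the compound, at -0.32 to -0.37. The TARS2 call with CWP232228 was lost under 7 of the 8 omissions of a library (-0.19 to -0.34), and that with YB-0158 without DMSO replicate 2 (-0.28) or YB-0158 replicate 2 (-0.24).

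LARS2, the mitochondrial leucyl enzyme, had 24.5 and 26.4 CPM with ICG-001, 33.7 and 31.5 CPM with CWP232228, and 27.6 and 27.3 CPM with YB-0158, against 33.1 and 32.4 CPM in DMSO. The CWP232228 libraries spanned the DMSO values, and LARS2 was called lower with ICG-001 (-0.36, adjusted p = 0.0077) and YB-0158 (-0.25, adjusted p = 0.04) by read counts and with neither by FPKM. AARS2 was called lower with the same compounds (-0.34 and -0.27) and CARS2 with ICG-001 (-0.27), again not by FPKM. These calls did not hold without single libraries. LARS2 with YB-0158 was lost under 7 of the 8 omissions (-0.23 to -0.27) and with ICG-001 without its replicate 1 (-0.31), AARS2 with ICG-001 without either ICG-001 library (-0.32 and -0.35) and with YB-0158 under 5 omissions (-0.22 to -0.29), and CARS2 without either ICG-001 library (-0.24 and -0.29). IARS2 was called higher with CWP232228 by read counts (0.33, adjusted p = 0.033), but not by FPKM (0.27, adjusted p = 0.11), and its values after the correction for GC content and length were -0.24, -0.11 and -0.21 with ICG-001, CWP232228 and YB-0158 (adjusted p = 0.01, 0.2 and 0.021). It was also not called under 5 of the 8 omissions of a library, at 0.19 to 0.36. The remaining EARS2, MARS2, NARS2, PARS2, RARS2, VARS2 and WARS2 had log2 fold changes between -0.31 and 0.16 by read counts and were not called. By FPKM, the measure used for EARS2, its values were -0.33, -0.12 and -0.08 (adjusted p = 0.056, 0.42 and 0.6 in limma). Among these, RARS2 was called higher by FPKM with ICG-001 (0.36) and CWP232228 (0.44). TARS3 had 12.2 and 13.5 CPM with ICG-001, 17.5 and 19.4 CPM with CWP232228, and 14.1 and 13.5 CPM with YB-0158, against 21.3 and 23.4 CPM in DMSO. It fell by 0.80 and 0.70 on the log2 scale with ICG-001 and YB-0158 (adjusted p = 0.00053 and 0.0011), and its value with CWP232228 was -0.28 (adjusted p = 0.059). After the correction for GC content and length it was called lower with CWP232228 too, at -0.61 (adjusted p = 0.0047).

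For 15 pairs, the cytosolic and the mitochondrial enzyme of the same amino acid could be set side by side per library, as a ratio of the authors' FPKM. The ratio in both libraries of the compound lay above both DMSO libraries in 12 pairs with ICG-001, 11 with CWP232228 and 11 with YB-0158, and below both in 2 pairs with each. FARS2 enters 2 of the 15 pairs, with FARSA and with FARSB. For single genes, 34.4%, 32.5% and 34% of the 15781 in the FPKM test lay above both DMSO libraries and 34.5%, 32.6% and 34.1% below, and the share for ratios of other gene pairs was not computed. For serine, the log2 ratio of SARS1 to SARS2 was 2.91 and 2.88 with ICG-001, 2.35 and 2.39 with CWP232228, and 2.88 and 2.86 with YB-0158, against 1.54 and 1.35 in DMSO. For tryptophan, the log2 ratio of WARS1 to WARS2 was 4.09 and 4.12 with ICG-001, 3.36 and 3.31 with CWP232228, and 3.84 and 3.97 with YB-0158, against 1.85 and 2.25 in DMSO. For threonine, TARS1 over TARS2 stood at 3.76 and 3.89 with ICG-001, 3.07 and 3.58 with CWP232228, and 3.62 and 3.75 with YB-0158, against 2.61 and 2.58 in DMSO. In all of these the treated libraries were apart from DMSO.

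The pairs SARS1/SARS2, YARS1/YARS2, TARS1/TARS2, LARS1/LARS2 and FARSB/FARS2 had opposite signs with both genes called by read counts in at least 2 comparisons. YARS1 and LARS1 enter here by their incomplete read sums. By FPKM, YARS2, TARS2 and LARS2 were called with no compound and FARSB with ICG-001 only. Of these pairs, SARS1/SARS2 alone met the rule by FPKM. After the correction for GC content and length, FARSB was called with no compound. For histidine and arginine the ratio was lower than in DMSO. The log2 ratio of HARS1 to HARS2 was 0.69 and 0.57 with ICG-001, 0.79 and 0.76 with CWP232228, and 0.48 and 0.47 with YB-0158, against 0.96 and 1.05 in DMSO. That of RARS1 to RARS2 was 1.55 and 1.37 with ICG-001, 1.74 and 1.49 with CWP232228, and 1.83 and 1.74 with YB-0158, against 1.84 and 2.29 in DMSO. Both FPKM ratios were lower in every treated library than in DMSO, for arginine at the closest by 1.83 against 1.84. By read counts the log2 fold change of RARS1 (0.20, 0.29 and 0.10) stood above that of RARS2 (0.11, 0.16 and -0.02) with each compound. The direction of the arginine pair thus depended on the measure.

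**Figure D3:**
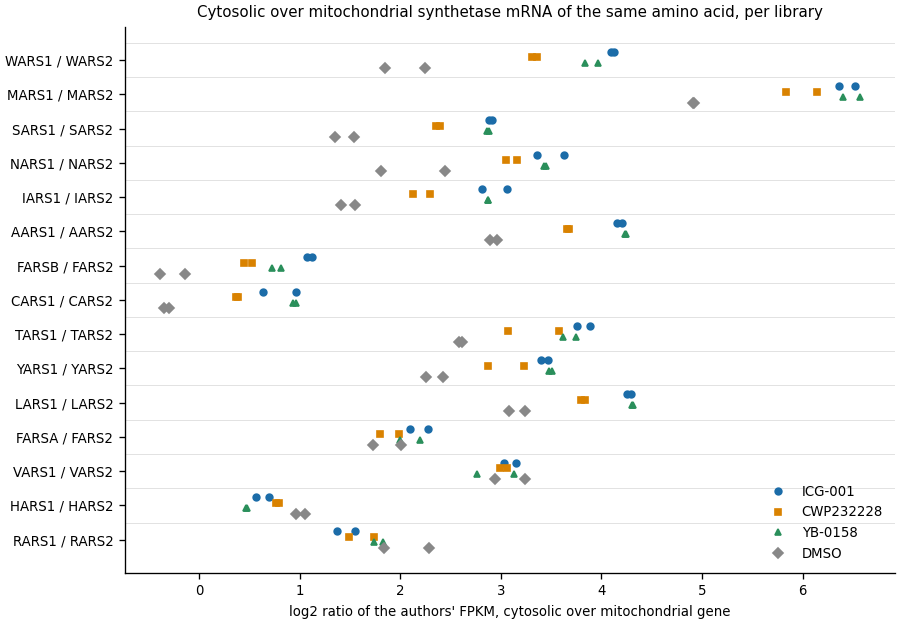
Log2 ratio of the authors' FPKM, cytosolic over mitochondrial gene (x axis), for 15 pairs of enzymes of the same amino acid (rows), with 1 point per library: ICG-001 (circles), CWP232228 (squares), YB-0158 (triangles) and DMSO (diamonds), 2 libraries each. The tryptophan pair shows 4.09 and 4.12 with ICG-001 against 1.85 and 2.25 in DMSO, and the histidine and arginine pairs at the bottom lie below DMSO.

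Between compounds, which were given at different doses, 9 of the 19 cytosolic genes were called lower with CWP232228 than with ICG-001. The differences of QARS1 (0.33), FARSA (0.10), RARS1 (0.09) and VARS1 (0.04) were positive and not called. In all, 11 of the 39 genes were called, 2 higher (LARS2 and TARS3) and 9 lower, where 3.65% of all genes were called higher and 3.17% lower (6.82% in either direction). All 9 lower genes were cytosolic: CARS1, EPRS1, GARS1, IARS1, MARS1, NARS1, SARS1, TARS1 and WARS1. WARS1 had the largest difference by read counts among genes with complete sums, -0.54 (95% interval -0.68 to -0.40, adjusted p = 0.0034), and EPRS1 had -0.42 (-0.58 to -0.27, adjusted p = 0.011). YB-0158 against CWP232228 gave 10 calls, 9 higher and TARS3 lower, where 3.56% of all genes were called higher and 4.21% lower (7.78% in either direction). Those 9 were AARS1, on its incomplete sums, and CARS1, EPRS1, IARS1, MARS1, NARS1, SARS1, TARS1 and WARS1. WARS1 differed by 0.65 (0.50 to 0.79, adjusted p = 0.0018) and IARS1 by 0.40 (0.22 to 0.58, adjusted p = 0.022). By FPKM, 4 genes were called in each of these comparisons, where 1.36% of all genes were called for CWP232228 against ICG-001 (0.773% higher and 0.589% lower) and 1.53% for YB-0158 against CWP232228 (0.741% higher and 0.792% lower).

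These calls rested on both libraries of a group: without ICG-001 replicate 1 or without CWP232228 replicate 2, 0 of the 39 genes were called between CWP232228 and ICG-001. Without CWP232228 replicate 2 or YB-0158 replicate 1, 1 gene was called between YB-0158 and CWP232228. Without both libraries labelled 49 h, 0 were called in each. The WARS1 difference was -0.51 and -0.55 without those libraries in turn for the first comparison.

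YB-0158 against ICG-001 gave 0 calls among the 39 genes in edgeR, where 0.00608% of all genes were called. At an unadjusted p under 0.05, 1 gene passed in edgeR, 1 in DESeq2, 1 in limma on the FPKM and 9 in voom with weights by group, and none of these tools called a gene. The 95% intervals of the difference were -0.03 to 0.25 for WARS1, -0.23 to 0.13 for IARS1 and -0.27 to 0.04 for EPRS1. Doses differed, at 0.3 µM for YB-0158 and 10 µM for ICG-001, and a p above the threshold does not show that they act alike.

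**Figure D4:**
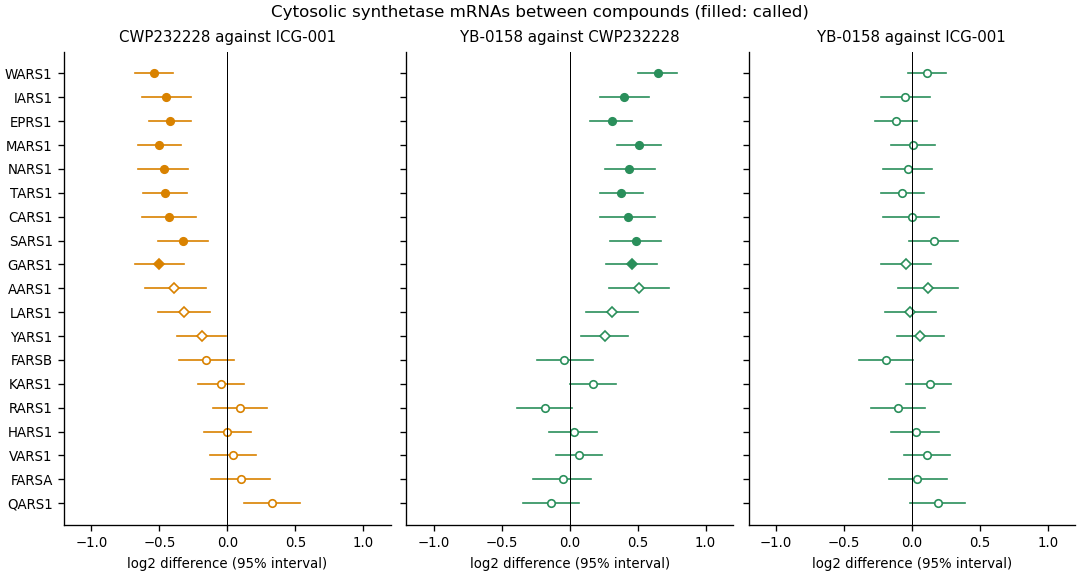
Log2 difference (points) with 95% interval (lines) of the 19 cytosolic genes between compounds, for CWP232228 against ICG-001, YB-0158 against CWP232228 and YB-0158 against ICG-001; circles are edgeR on read counts, diamonds limma on the authors' FPKM, and filled symbols were called. WARS1 stands at -0.54, 0.65 and 0.11 in the 3 panels.

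Transcript usage was tested for genes with several transcripts, of which 3.88%, 3.58% and 3.2% were called with ICG-001, CWP232228 and YB-0158. Of the 39 genes, FARSB, AARS2, IARS2, MARS2 and PARS2 had no usage test. HARS1 was called with ICG-001 (adjusted p = 0.041) and with CWP232228 (just under the threshold, 0.05 as rounded), and QARS1 with CWP232228 (adjusted p = 0.0013). With 1 and 2 calls, the members were near those shares of all genes. In HARS1 no transcript's share moved by 10 percentage points. In QARS1, the share of the coding transcript QARS-209 was 0% and 0% with CWP232228, against 9.97% and 10.1% in DMSO. The same transcript held 0% and 6.25% with ICG-001 and 2.35% and 13.4% with YB-0158. The YB-0158 replicates thus lay further apart than the groups CWP232228 and DMSO did. With YB-0158 0 genes were called in edgeR, the only tool run for usage, and 8 had an unadjusted p under 0.05. For KARS1, the main coding transcript KARS-201 held 75.3% and 73.7% with ICG-001, 73.6% and 74.5% with CWP232228, and 71.7% and 70.4% with YB-0158, against 68.0% and 72.1% in DMSO. In WARS1, the coding transcript WARS-203 held 22.4% and 19.1% with ICG-001, 24.9% and 24.1% with CWP232228, and 18.9% and 18.1% with YB-0158, against 31.8% and 35.4% in DMSO, in a gene whose usage was not called.

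Other genes of tRNA charging were called in both directions. Of 13 accessory genes, 6 were called higher and 2 lower with ICG-001, 3 and 3 with CWP232228, and 6 and 1 with YB-0158. The counts with CWP232228 were near the shares of all genes, 21.6% higher and 21.2% lower, while those shares were 24.8% and 24% with ICG-001 and 21.7% and 22.1% with YB-0158. XPOT, which exports tRNA from the nucleus, averaged 620.2 CPM with ICG-001, 393 CPM with CWP232228 and 568 CPM with YB-0158, against 130.5 CPM in DMSO, with log2 fold changes of 2.25 ± 0.12, 1.59 ± 0.12 and 2.12 ± 0.12. In the same fit, that exceeds the log2 fold change of every synthetase gene. TRNT1, which adds the CCA end to tRNAs, had log2 fold changes of 1.13, 1.41 and 1.32, and SEPSECS, which makes selenocysteinyl-tRNA, 0.76, 0.69 and 0.54. GATB, a subunit of the mitochondrial amidotransferase that makes glutaminyl-tRNA there, fell by 0.76, 0.63 and 0.61. The other subunits of that enzyme did not fall: QRSL1 had values of 0.33, 0.24 and 0.30 (adjusted p = 0.015, 0.065 and 0.027), and GATC had 0.15, 0.06 and 0.08 and was not called.

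Of 7 genes that deliver charged tRNAs to the ribosome, 0 were called higher with each compound in edgeR, all fold changes being negative. Of these genes 5, 4 and 5 were called lower, where 24%, 21.2% and 22.1% of all genes were called lower. TUFM, the mitochondrial elongation factor, fell by 0.88, 0.69 and 0.78, and EEF1G, a cytosolic exchange factor subunit, by 0.77, 0.57 and 0.57. EEF1A1, the main cytosolic carrier, had values of -0.19, -0.17 and -0.09 and was not called. Of 8 genes of the amino acid response, 7 were called higher with each compound, where 24.8%, 21.6% and 21.7% of all genes were. Both lists were chosen with earlier results of these data known. ASNS, asparagine synthetase, had log2 fold changes of 2.65, 2.30 and 2.54, and CHAC1, a glutathione-degrading enzyme, 3.83, 2.30 and 3.68. ATF4 mRNA itself had values of 0.02, -0.02 and 0.08 and was not called (adjusted p = 0.87, 0.88 and 0.46).

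GC content moved with these results. By read counts, the 12 cytosolic genes called higher with all compounds had 41.4% to 58.3% GC (median 46.0%). The 3 called lower had 55.1% to 61.0% (median 60.6%). Over all 16449 genes, the log2 fold change correlated with GC content at a Spearman rho of -0.42 with ICG-001, -0.57 with CWP232228 and -0.38 with YB-0158, over the 19 cytosolic genes at -0.47, -0.57 and -0.44, and over the 16 mitochondrial genes at -0.66, -0.61 and -0.59. Differences between the replicates of a group also went with GC content, with a rho (replicate 1 minus replicate 2, over 11335 genes) of 0.71 for ICG-001, 0.52 for CWP232228, 0.51 for YB-0158 and -0.56 for DMSO. These are descriptions across genes, which are not independent replicates. With the correction for GC content and length, 11, 11 and 12 cytosolic genes were called higher and 3, 1 and 2 lower, and 0, 0 and 1 mitochondrial genes higher and 8, 5 and 6 lower. In that fit 23.8%, 13.5% and 22.6% of all genes were called higher and 24.1%, 15.7% and 22.4% lower. The rise of WARS1, IARS1, EPRS1 and GARS1 passed the test in that fit as well, with each compound. That fit used read counts, so its results for GARS1, AARS1, LARS1, YARS1 and EARS2 rest on incomplete sums.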

How the data were processed

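RNA of 8 HT29 libraries was read from the deposited transcript files. Libraries were made with a TruSeq RNA v2 kit, per the labels, which keeps no strand information. Tools in the submitters' processing notes are DESeq2, fastp and Salmon 1.3.0, with GRCh38 as build. Per the file headers, each deposited file holds Salmon's estimated counts and TPM per transcript, and the authors' deposited gene tables hold FPKM per library, a mean signal as normalized counts, log2 fold changes and p-values. Which transcriptome release was used is not given in the sources used here.

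The deposited estimated counts were matched by identifier to GENCODE 29 (204677 of 228754 transcripts), summed per gene, rounded and tested in edgeR 4.0.16 (R 4.3.3; TMM scaling, filterByExpr, robust quasi-likelihood test) in 1 model of 4 groups with 4 residual degrees of freedom. FPKM of 15781 genes (at least 0.5 in at least 2 libraries) were tested in limma 3.58.1 as log2(FPKM + 0.1), a choice made after seeing the data. TPM served transcript shares only. Usage was tested with diffSpliceDGE (Simes p per gene). Steps were tested on simulated data. A count of 0 allows up to 3 reads, or 0.0513 to 0.103 CPM, which covers counting error only. Alternatives were RLE scaling, DESeq2 1.42.0, voom weights, no filter, a GC and length correction, a replicate block, and omitted libraries. Values per library are given for the 4 members of each class with the largest mean rise and fall among those called in at least 2 of 3 comparisons, the scaffold genes, TARS3 and pairs of opposite sign with both genes called. Others are given by range, or were chosen after their values were seen. Members and lists were chosen with earlier results of these data known. An item of the marker lists is not reported here.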

Additional observations from a re-analysis of the deposited data

How the results depend on the processing

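Members called higher numbered 13, 15 and 14 with ICG-001, CWP232228 and YB-0158 against DMSO, and 12, 7 and 10 were called lower. Under RLE scaling, 11 were lower with CWP232228. In a fit of only the 2 groups compared, 6 were lower with YB-0158. By FPKM with a pseudocount of 0.1 or of 1, 5, 3 and 5 were lower, and 4 were called for CWP232228 against ICG-001 and 4 for YB-0158 against CWP232228, in place of 11 and 10. Without both libraries labelled 49 h, 5 were lower with ICG-001, 6 higher and 0 lower with CWP232228, 5 lower with YB-0158, and 0 were called for CWP232228 against ICG-001 or YB-0158 against CWP232228. That setting leaves 1 library for each of 2 groups, which is assumed to vary like the others, as is the lone library where 1 is left out. Without the low-count filter, 1 member was called for YB-0158 against ICG-001, in place of 0. Without the transcript filter beyond a total of 10, usage was called for 0 and 1 member with ICG-001 and CWP232228, in place of 1 and 2. The cause of these shifts was not tested. The FARSB log2 fold change turned under the GC and length correction, to -0.18 with CWP232228 and -0.07 with YB-0158, and to the same values when the replicate block was added.

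Leaving out each library in turn gave 12 to 17 higher and 8 to 12 lower members with ICG-001, 10 to 15 and 3 to 12 with CWP232228, and 12 to 16 and 5 to 11 with YB-0158. The lowest of these followed the omission of CWP232228 replicate 2 for 3 lower and of YB-0158 replicate 2 for 5 lower, and the highest of 12 lower with CWP232228 that of DMSO replicate 1. It gave 0 to 15 for CWP232228 against ICG-001, 0 in each case for YB-0158 against ICG-001, and 1 to 16 for YB-0158 against CWP232228. Usage calls ran from 0 to 3, 1 to 4 and 0 to 3 with ICG-001, CWP232228 and YB-0158, the highest without DMSO replicate 1.

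The labels give the groups shared replicate numbers, but the differences between replicates correlated at 0.12 to 0.51 among compounds and at -0.19 to -0.26 with DMSO, and neither the labels nor 2 numbers per group show that the numbers pair the libraries. The correlations among compounds were all positive. With the replicate block, 13, 14 and 14 members were called higher, 11, 6 and 8 lower, and 8, 0 and 7 were called for CWP232228 against ICG-001, YB-0158 against ICG-001 and YB-0158 against CWP232228, in place of 11, 0 and 10.

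Of 63 log2 fold changes of 21 named members, 61 kept direction and side of the threshold in DESeq2, 62 under RLE scaling, 61 with the block, 51 with the GC and length correction, 48 by FPKM and 39 without the 49 h libraries. Depth was not varied, and its effect on these calls was not tested.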
